A study of Homo sapiens with 16 samples.

Results

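The transcripts described here are those of 10 human genes: the ADP-ribosyltransferases PARP1, PARP2, PARP3, PARP4, PARP9, PARP10, PARP12 and PARP14, the tankyrase TNKS, and PARG, the main enzyme that takes poly(ADP-ribose) apart. They were chosen by gene symbol, with no threshold on a measured value, from 60623 annotated genes, and all 10 were found in each of the 16 RNA-Seq libraries. All libraries came from MUTZ-3, an established acute myeloid leukaemia line in which a chromosome 3 rearrangement drives EVI1 (gene symbol MECOM), and all cells were grown with GM-CSF and medium conditioned by 5637 cells. In the inhibitor experiment, 1 library was untreated (0 h), and cells given the DMSO vehicle, olaparib (10 µM) or talazoparib (1 µM) were each sampled once at 12, 24 and 48 h. In the knockdown experiment, cells carrying a lentiviral pLKO.1 vector with a non-targeting control shRNA (NTC), shEVI1-2531 or shEVI1-2532 were selected with puromycin and sampled once on day 3 and once on day 6.

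Each condition was thus 1 library, and nothing says that the hours or days came from separate cultures. Tests used the 12, 24 and 48 h libraries, or both days, as replicates of a treatment after allowing for time. Their p-values measure only the spread between these libraries, not between separate cultures. With so few libraries, edgeR draws the variance of each gene toward that of all genes tested. Very small p-values thus rest largely on the spread of other genes. Levels are given as CPM, the count of a gene per 1e6 counts of its library after TMM scaling. Totals were 55999673 to 72681943 counts in the 10 inhibitor libraries and 95523038 to 120716213 in the 6 knockdown libraries. The myeloid genes MPO, PTPRC, CD33 and SPI1 were at 76.2 CPM or more in every library, whereas CDH1, EPCAM and KRT5 had at most 3 counts in any library.

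ADP-ribosyltransferases move ADP-ribose from NAD+ onto proteins or nucleic acids. PARP1 and PARP2 are switched on by DNA breaks and build branched chains that draw repair factors to the lesion, PARP3 is switched on by breaks but adds single units, and the tankyrases build chains on partners such as axin. PARP9, PARP10, PARP12 and PARP14 belong to a group of interferon-inducible members that act in antiviral defence and mostly add single units. Olaparib and talazoparib occupy the NAD+ site of PARP1 and PARP2 and hold these enzymes on damaged DNA.

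Upstream sequence from RefSeq (GRCh38.p14) was used for 7 of the 10 genes, with a pair of alternative starts for PARP9, and for the PARP9 partner DTX3L. No window of PARP4, PARP10 or TNKS was searched, so motif letters near these genes, such as an ISRE at PARP10, were not examined. The sequence used was searched on both strands for the letters of 9 motifs: ISRE (TTTCNNTTTC, the interferon-stimulated response element), GAS (TTCNNNGAA, the interferon-gamma-activated site), E2F (TTTCCCGC or TTTGGCGC), GC box (GGGCGG), ETS (CCGGAAGT), CHR (TTTGAA), CRE (TGACGTCA), NRF1 (GCGCATGCGC) and E-box (CACGTG). ISRE letters lay in the 250 bases before a RefSeq start of PARP9 (1 of its 2), PARP12 and PARP14 and in 3.02% of 35116 promoter windows genome-wide. The 100 bases before these starts are shown with the ISRE letters in capitals, because the same 3 genes are set against the interferon-stimulated genes in the results: PARP9 at chr3:122564301-122564400 (minus strand), PARP12 at chr7:140062952-140063051 (minus strand) and PARP14 at chr3:122680739-122680838 (plus strand).
PARP9: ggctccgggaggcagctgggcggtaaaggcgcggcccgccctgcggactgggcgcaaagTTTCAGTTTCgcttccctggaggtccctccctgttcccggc
PARP12: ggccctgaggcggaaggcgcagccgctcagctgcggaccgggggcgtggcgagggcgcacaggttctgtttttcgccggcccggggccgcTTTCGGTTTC
PARP14: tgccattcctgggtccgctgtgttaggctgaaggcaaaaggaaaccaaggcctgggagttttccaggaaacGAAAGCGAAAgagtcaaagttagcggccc

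The ISRE letters of PARP9 began 41 bases before its start, those of PARP14 29 bases and those of PARP12 10 bases before. At PARP9 the site (chr3:122564332-122564341) also lay across the start of DTX3L, which runs the other way from a start 38 bases distant, with 6 of its bases before the DTX3L start. These placements depend on the start used. The RefSeq start of PARP14 is the 5′ end of the gene in the deposited files, whereas the PARP9 start used lies 277 bases and the PARP12 start 770 bases inside the gene as the files give it, and the ISRE letters of both lie inside that span too. The window of the other PARP9 start held no ISRE letters. The PARP2 start likewise lies 53 bases inside, the PARP3 start 18 bases and the PARG start 28176 bases. The PARG window searched thus lies well within the gene as the files give it, and its 5′ end there was not searched. PARP14 held GAS letters 40 bases before its start, found in 6.57% of all windows. For contrast, the same stretch is shown for PARP1 (chr1:226408094-226408193, minus strand; capitals mark GC boxes, found in 42.6% of windows) and PARP2 (chr14:20343535-20343634, plus strand; capitals mark CRE letters, found in 1.65%), which lacked ISRE letters in the searched 250 bases.
PARP1: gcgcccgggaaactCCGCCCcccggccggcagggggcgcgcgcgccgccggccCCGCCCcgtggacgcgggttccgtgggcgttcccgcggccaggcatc
PARP2: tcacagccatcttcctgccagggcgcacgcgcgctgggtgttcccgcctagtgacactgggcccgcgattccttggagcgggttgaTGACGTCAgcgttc

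E2F letters (1.93% of windows), ETS letters (3.42%), CHR letters (13.3%), NRF1 letters (1.03%) and E-box letters (6.34%) were absent from the searched windows of these genes. PARP2 also held GAS letters 154 bases before its start. GC boxes lay in the windows of PARP2, PARP9, PARP12 and PARP14 as well, and only those of PARP1 are shown in capitals. A match of letters is a description of the sequence and does not show that a factor was bound.

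**Figure D1:**
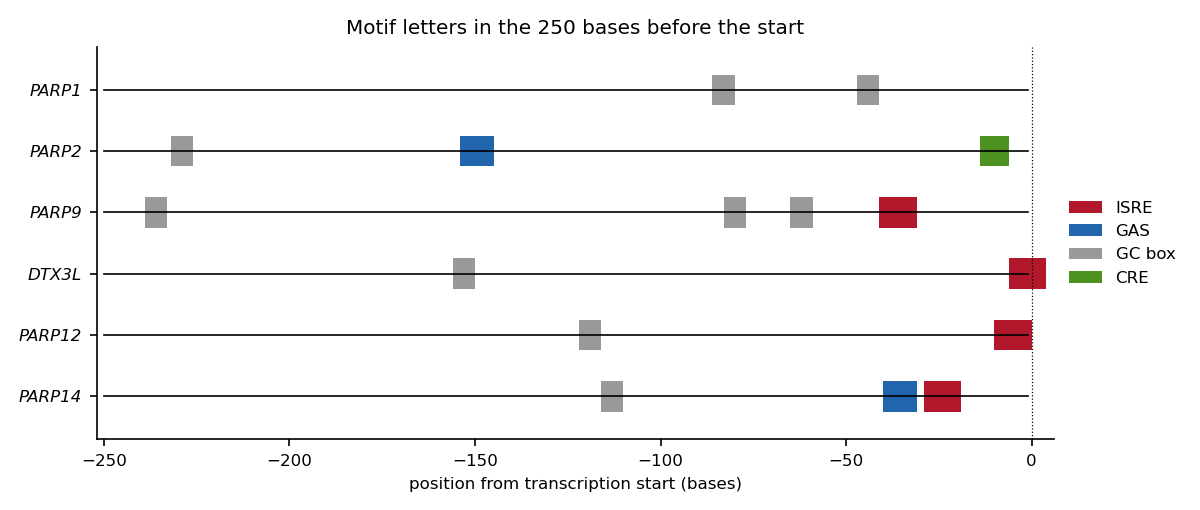
Motif letters in the 250 bases before the RefSeq transcription start (x axis, bases; 0 marks the start) of 6 genes, 1 per row, with ISRE in red, GAS in blue, GC boxes in grey and CRE in green. ISRE letters lie within 41 bases of the start of PARP9, PARP12 and PARP14, the PARP9 site crosses the start of DTX3L, and PARP1 and PARP2 have none.

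In the files' GRCh38 coordinates PARP1 spans chr1:226360691-226408093 (minus strand), PARP2 chr14:20343582-20357905 (plus), PARP3 chr3:51942345-51948867 (plus), PARP4 chr13:24420931-24512778 (minus), PARP9 chr3:122527924-122564577 (minus), PARP12 chr7:140023744-140063721 (minus), PARP14 chr3:122680839-122730840 (plus) and PARG chr10:49818279-49970203 (minus). PARP10 lies on the minus strand of chromosome 8 and TNKS on the plus strand. All values are counts per gene, so isoforms are not separated, and whether reads in introns were counted is not given in the sources used here.

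Without inhibitor, PARP1 was by far the most abundant member. Levels between genes were compared as CPM per kilobase of exon in the 3 DMSO libraries. PARP1 ranged from 44.9 to 57.4 and PARP4, the vault-particle member, from 29.6 to 33.0, with no overlap between them or with any other member. PARP9 (6.52 to 13.8), PARP14 (6.74 to 9.43), PARP10 (5.54 to 7.62), PARP2 (5.27 to 5.69) and PARG (5.50 to 5.65) formed a middle group in which each range overlapped the next. PARP12 (2.21 to 3.64), TNKS (1.87 to 2.18) and PARP3 (0.258 to 0.334) were the lowest, and PARP3 was below 1 CPM in every library. With the shorter basic gene models of GENCODE, an alternative chosen after seeing the data, PARP1 (75.5 to 96.6), PARP4 (32.9 to 36.7) and PARP3 (0.305 to 0.394) kept these places, but PARP2 was at 10.6 to 11.4 and no longer overlapped PARG (6.58 to 6.76). In NTC cells, normalised separately, PARP1 (37.7 on day 3 and 58.3 on day 6) and PARP4 (19.7 and 16.7) again led and PARP3 (0.287 and 0.324) was again last.

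Some members already differed between DMSO and untreated cells. Relative to the untreated library, PARG was higher by 0.71 to 0.75 on the log2 scale in the 3 DMSO libraries and PARP2 by 0.55 to 0.66, whereas PARP1 was lower by 0.21, 0.43 and 0.56 at 12, 24 and 48 h (log2 ratios of -0.21, -0.43 and -0.56). PARP9 stood at 2.83 times the untreated level in DMSO at 48 h, with a log2 ratio of 1.50 and a 95% Poisson interval, which covers counting error only, of 1.44 to 1.56. PARP10 was at 48.1 CPM in the untreated library, and its log2 ratios in DMSO were -0.22, -0.52 and -0.06 at 12, 24 and 48 h. These are single libraries and carry no test. Inhibitor libraries were therefore compared with DMSO of the same hour throughout.

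Among the break-activated enzymes, PARP1 and PARP2 mRNA declined with time on either inhibitor. PARP1 stood at 411, 353 and 322 CPM in DMSO at 12, 24 and 48 h, at 385, 300.4 and 184 CPM with olaparib, and at 416, 247 and 138 CPM with talazoparib. At 12 h the 3 conditions were close together, and by 48 h PARP1 was at 57.1% of its DMSO level with olaparib and at 43.0% with talazoparib. PARP2 measured 23.3, 21.6 and 22.9 CPM in DMSO, 20.8, 15.3 and 10.7 CPM with olaparib and 21.8, 15.4 and 6.12 CPM with talazoparib. Its fall at 48 h was to 46.6% of DMSO with olaparib (log2 ratio -1.10, 95% Poisson interval -1.24 to -0.96) and to 26.7% with talazoparib (-1.91, -2.09 to -1.73), the lowest share of any member at that hour. In bulk RNA such as this, fewer cells of a type and less RNA per cell cannot be told apart.

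These time courses were tested as slopes, the change in the log2 ratio to DMSO per doubling of hours, with both inhibitors' slopes tested jointly against 0. The mean slope was -0.49 ± 0.13 (SE) for PARP1 (edgeR adjusted p = 0.00235) and -0.68 ± 0.14 for PARP2 (edgeR adjusted p = 6.03e-06), over 9 libraries with 2 residual degrees of freedom. By inhibitor the fitted slopes were -0.36 with olaparib and -0.62 with talazoparib for PARP1, and -0.47 and -0.89 for PARP2. The slopes of the other 8 members ranged from -0.41 ± 0.27 for PARP3 (edgeR adjusted p = 0.528) to 0.32 ± 0.13 for PARP10 (0.191), with the smallest adjusted p for PARP14 (-0.11 ± 0.13, 0.0632). PARP1 and PARP2 were thus 2 of the 10 members with an adjusted p under 0.05 (the threshold for a call throughout), against 16.5% of the 17218 genes tested. The PARP2 call was lost only without the DMSO 48 h library (slope -0.36, edgeR adjusted p = 0.161) when libraries were left out one at a time. For PARP1 it was lost without DMSO 12 h (-0.64, edgeR adjusted p = 0.173), talazoparib 12 h (-0.47, 0.0683), DMSO 48 h (-0.34, 0.772) or talazoparib 48 h (-0.49, 0.0947).

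Averaged over the 3 hours, the same falls did not reach the threshold. This fit takes 1 effect of each inhibitor for all hours, so a change of that effect with time enters its error. The mean effect of both inhibitors was -0.49 ± 0.18 for PARP1 (edgeR adjusted p = 0.0946) and -0.72 ± 0.25 for PARP2 (edgeR adjusted p = 0.0853). No member was called lower in that comparison, in which 1.01% of all genes tested were lower. DESeq2 and the edgeR test without a filter on low counts did call PARP2 lower (-0.73 in both, adjusted p = 0.0258 with DESeq2 and 0.0114 with edgeR), and the unfiltered test called PARP1 lower too (-0.50, edgeR adjusted p = 0.0243).

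PARP3 was measured at the limit of useful depth. It had 0.838, 0.755 and 0.977 CPM in DMSO, 0.905, 0.649 and 0.754 CPM with olaparib, and 0.753, 0.679 and 0.376 CPM with talazoparib. Only the talazoparib 48 h library, with 18 counts against 64 in DMSO, had an interval of the log2 ratio that left out 0 (-1.38, -2.13 to -0.62). Its mean effect (-0.34 ± 0.24, edgeR adjusted p = 0.331) was not called.

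**Figure D2:**
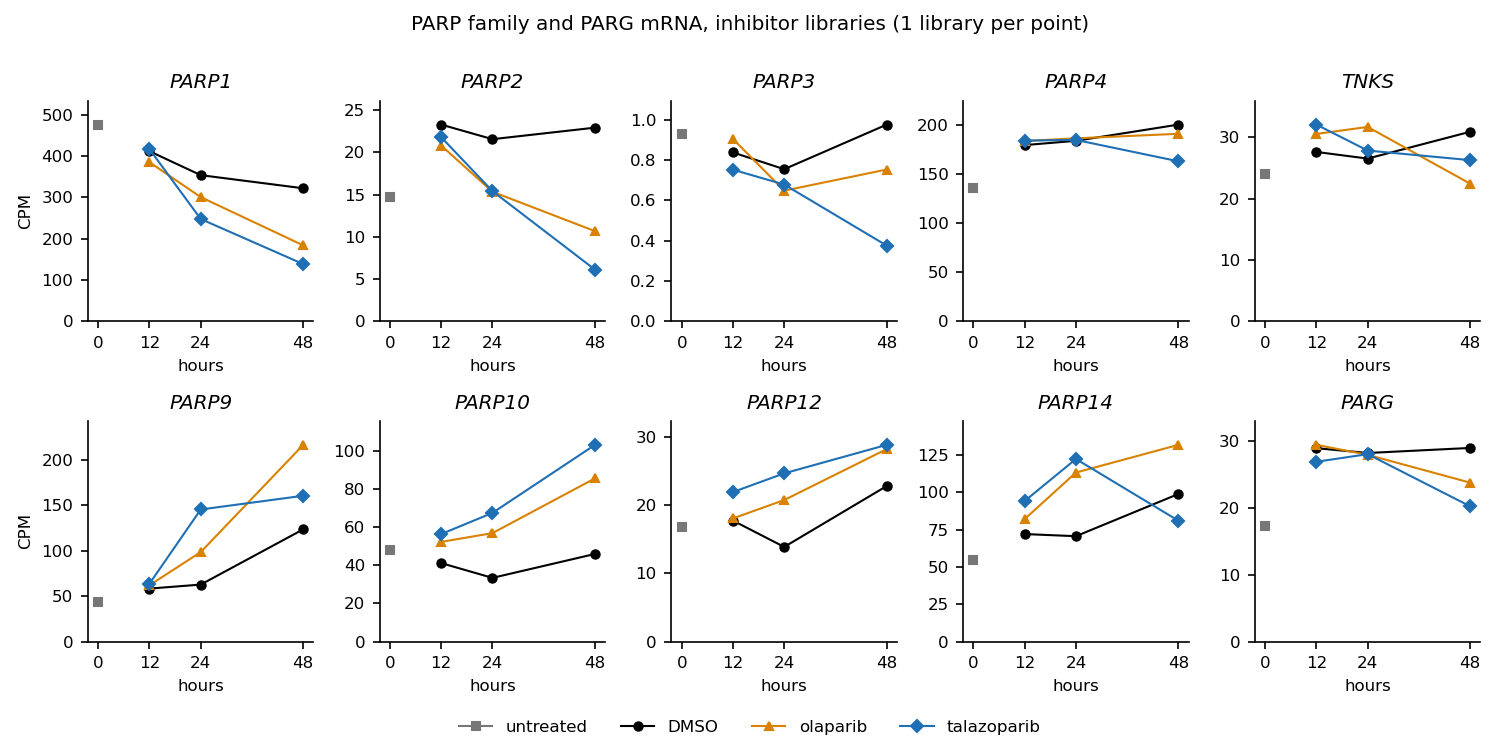
CPM (y axis, from 0, own scale per gene) against hours (x axis) for the 10 members, 1 point per library, for untreated (grey squares), DMSO (black circles), olaparib (orange triangles) and talazoparib (blue diamonds). PARP1 and PARP2 drop away from DMSO by 48 h, to 138 and 6.12 CPM with talazoparib, while PARP10 lies above DMSO in all 6 inhibitor libraries and PARP4 stays between 163 and 201 CPM from 12 h on.

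Of the interferon-inducible members, PARP10 was called higher with the inhibitors. PARP10, which adds single ADP-ribose units and binds MYC, measured 41.2, 33.4 and 46.0 CPM in DMSO, 52.3, 56.9 and 85.7 CPM with olaparib and 56.4, 67.6 and 103 CPM with talazoparib. Every inhibitor library exceeded DMSO of its hour, by a log2 ratio of 0.35 to 1.17, and all 6 exceeded every DMSO library. The untreated library, at 48.1 CPM, also lay above every DMSO library and below every inhibitor library. The mean effect was 0.76 ± 0.13 (edgeR adjusted p = 0.0329, 9 libraries, 4 residual degrees of freedom). PARP10 was the 1 member of 10 called higher, against 3.16% of all genes tested, and it was also the 1 member called higher with talazoparib alone (0.87 ± 0.15, edgeR adjusted p = 0.0362), against 3.00% of genes. The talazoparib call was lost without olaparib 12 h (0.88, edgeR adjusted p = 0.0806), DMSO 24 h (0.81, 0.159), olaparib 24 h (0.87, 0.110), talazoparib 24 h (0.83, 0.158), olaparib 48 h (0.87, 0.0918) or talazoparib 48 h (0.78, 0.0946).

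With olaparib alone PARP10 changed by 0.66 ± 0.15 (edgeR adjusted p = 0.106), and no member was called, against 0.639% of genes tested. At an unadjusted p under 0.05, PARP9 and PARP10 passed for olaparib with edgeR, 2 of 10 members beside 18.4% of all genes tested, and DESeq2 called PARP10 (0.65, DESeq2 adjusted p = 0.0151). Doses differed between the inhibitors, so their effects were not tested against each other. The PARP10 mean effect kept its size but not its call without olaparib 12 h (0.80, edgeR adjusted p = 0.0788), DMSO 24 h (0.70, 0.197), olaparib 24 h (0.76, 0.140), talazoparib 24 h (0.74, 0.128) or olaparib 48 h (0.74, 0.116). GRINA, a membrane-protein gene that overlaps PARP10 on the opposite strand, had 4271 to 20593 counts a library and moved in the same direction (0.99 ± 0.25, edgeR adjusted p = 0.0536). The strand setting of the counting is not given in the sources used here, and the part of GRINA reads in the PARP10 value was not tested.

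Of PARP9, PARP12 and PARP14, the ratio to DMSO was highest at 24 h with either inhibitor, except that PARP9 was highest at 48 h with olaparib. PARP9, which works as a complex with the ubiquitin ligase DTX3L, measured 58.3, 62.7 and 123 CPM in DMSO, 62.0, 98.5 and 216 CPM with olaparib and 63.7, 145 and 160.4 CPM with talazoparib. With talazoparib it was thus at 2.32 times DMSO at 24 h (log2 ratio 1.21, 95% Poisson interval 1.16 to 1.26) and at 1.30 times at 48 h, when DMSO itself had risen. PARP12, a zinc-finger member, measured 17.8, 13.9 and 22.8 CPM in DMSO, 18.1, 20.8 and 28.3 CPM with olaparib and 22.0, 24.7 and 28.9 CPM with talazoparib. PARP14, which carries macrodomains that bind ADP-ribose, measured 72.1, 70.7 and 99.0 CPM in DMSO, 82.2, 113 and 132 CPM with olaparib and 94.3, 122 and 81.1 CPM with talazoparib.

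The talazoparib 48 h library was the only inhibitor library in which PARP14 was below DMSO (log2 ratio -0.29, 95% Poisson interval -0.35 to -0.23). Mean effects were 0.54 ± 0.20 for PARP9 (edgeR adjusted p = 0.0951), 0.39 ± 0.13 for PARP12 (0.0756) and 0.37 ± 0.18 for PARP14 (0.177), none of them called. DESeq2 called PARP12 (0.38, DESeq2 adjusted p = 0.0497), and the edgeR test without the filter called PARP9 (0.54, edgeR adjusted p = 0.0275). DTX3L, which shares the ISRE letters of PARP9, changed by 0.34 ± 0.13 (edgeR adjusted p = 0.112). It overlaps PARP9 on the opposite strand, with 2724 to 6741 counts a library.

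PARP4 and TNKS had the smallest mean effects. PARP4 lay between 163 and 201 CPM in the 9 libraries from 12 h on, with a mean effect of -0.05 ± 0.09 (edgeR adjusted p = 0.744). At 48 h it was at 95.3% of DMSO with olaparib and at 81.3% with talazoparib. TNKS lay between 22.5 and 32.1 CPM, with a mean effect of -0.01 ± 0.13 (edgeR adjusted p = 0.976). That mean joined ratios of opposite sign. The log2 ratios of TNKS to DMSO at 12, 24 and 48 h were 0.15, 0.26 and -0.46 with olaparib. With talazoparib they were 0.22, 0.07 and -0.23. PARG measured 28.9, 28.2 and 29.0 CPM in DMSO, 29.4, 28.0 and 23.8 CPM with olaparib and 26.9, 28.1 and 20.2 CPM with talazoparib. It was at 93.0% to 102% of DMSO until 24 h and at 82.1% with olaparib and 69.9% with talazoparib at 48 h, and its mean effect (-0.16 ± 0.11, edgeR adjusted p = 0.337) was not called.

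**Figure D3:**
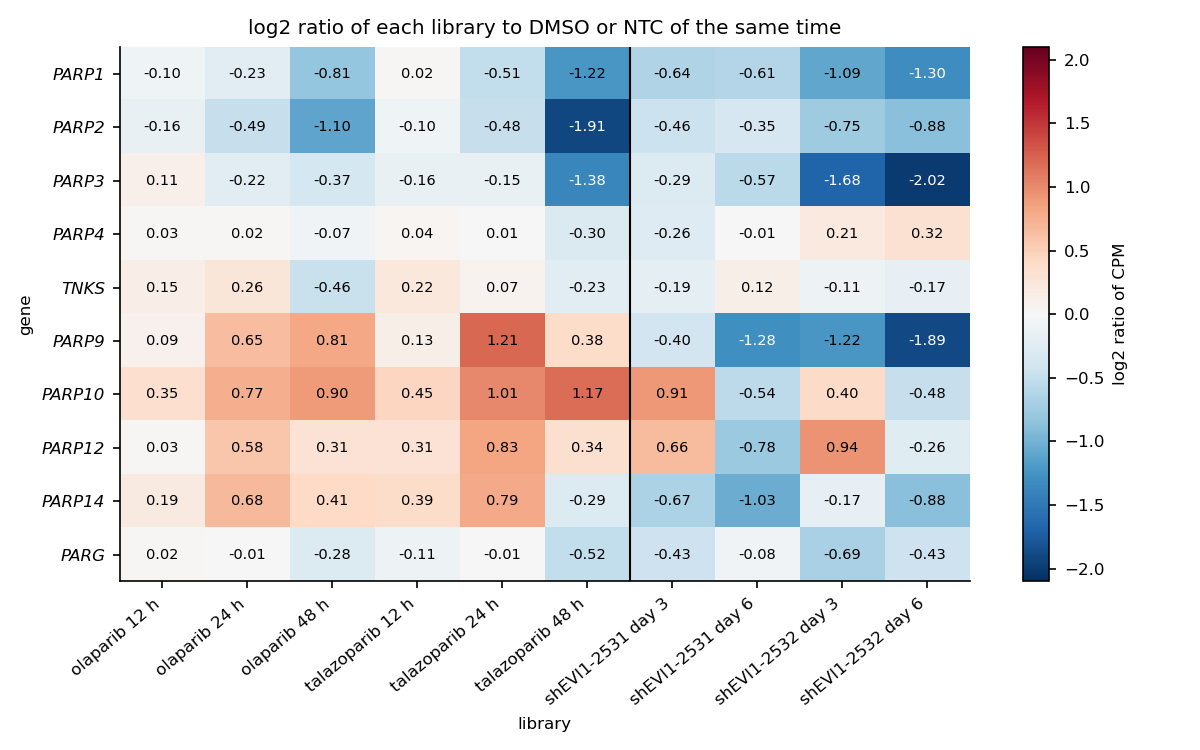
Log2 ratio of CPM of each treated library to DMSO of the same hour or NTC of the same day, for the 10 members (rows) and 10 libraries (columns), from blue (lower) to red (higher), with each value printed in its cell. PARP2 is below 0 in every library and PARP1 in all but talazoparib 12 h, PARP9 is higher with the inhibitors and lower with the shRNAs, and PARP10 and PARP12 change sign between day 3 and day 6.

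The knockdown was checked first on its target. MECOM measured 40.6 CPM on day 3 and 37.2 CPM on day 6 in NTC cells, 13.2 and 17.5 CPM with shEVI1-2531, and 5.1 and 4.3 CPM with shEVI1-2532. It changed by -1.34 ± 0.19 on the log2 scale with shEVI1-2531 (edgeR adjusted p = 0.000644) and by -3.04 ± 0.21 with shEVI1-2532 (7.95e-07). The inhibitor slope of MECOM was also negative (-0.94 ± 0.13, edgeR adjusted p = 1.59e-12).

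PARP1 was lower with both shRNAs on both days. It measured 271 CPM on day 3 and 418 CPM on day 6 in NTC, 174 and 274 CPM with shEVI1-2531, and 127 and 169 CPM with shEVI1-2532, so that the order of the 3 groups was the same on each day although NTC itself rose. The effect was -0.62 ± 0.13 with shEVI1-2531 (edgeR adjusted p = 0.00577) and -1.20 ± 0.13 with shEVI1-2532 (1.95e-05), over 6 libraries with 2 residual degrees of freedom. The shEVI1-2532 effect minus that of shEVI1-2531 was -0.57 ± 0.13 (edgeR adjusted p = 0.00680). Without the shEVI1-2531 day 3 library or the NTC day 6 library the shEVI1-2531 call was lost (-0.56, edgeR adjusted p = 0.0613 and -0.55, 0.0588), and without shEVI1-2532 day 6 the difference was no longer called (-0.46, 0.0589).

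PARP2 measured 18.4 and 14.7 CPM in NTC on days 3 and 6, 13.4 and 11.6 CPM with shEVI1-2531, and 10.9 and 8.02 CPM with shEVI1-2532. It was called lower with shEVI1-2532 (-0.81 ± 0.17, edgeR adjusted p = 0.00253) and not with shEVI1-2531 (-0.40 ± 0.17, 0.126), and the difference between the shRNAs was not called (-0.41 ± 0.17, 0.104). PARP3 measured 0.839 and 0.949 CPM in NTC, 0.686 and 0.638 CPM with shEVI1-2531, and 0.262 and 0.234 CPM with shEVI1-2532. These last values rest on 23 and 22 counts, against 106 and 123 in NTC. PARP3 was lower with shEVI1-2532 (-1.85 ± 0.34, edgeR adjusted p = 0.00109), the largest fall of any member, and lower than with shEVI1-2531 (-1.41 ± 0.35, 0.0117). That difference lost its call without shEVI1-2531 day 3 (-1.34, edgeR adjusted p = 0.0535), shEVI1-2532 day 3 (-1.51, 0.0514) or shEVI1-2532 day 6 (-1.31, 0.0923).

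PARP9, which had been above DMSO in all 6 inhibitor libraries, was lower with both shRNAs. It measured 29.0 and 40.5 CPM in NTC on days 3 and 6, 22.0 and 16.6 CPM with shEVI1-2531, and 12.5 and 10.9 CPM with shEVI1-2532. All 4 knockdown libraries lay below both NTC libraries. The effect was -0.85 ± 0.21 with shEVI1-2531 (edgeR adjusted p = 0.0155) and -1.58 ± 0.21 with shEVI1-2532 (0.000110), and the difference between them was -0.72 ± 0.21 (0.0259). The shEVI1-2531 call was lost without NTC day 6 (-0.42, edgeR adjusted p = 0.195) or shEVI1-2531 day 6 (-0.55, 0.0842), and the difference without shEVI1-2531 day 3 (-0.43, 0.263) or shEVI1-2532 day 6 (-0.61, 0.115). DTX3L, whose start and ISRE letters adjoin those of PARP9, measured 31.9 and 49.6 CPM in NTC, 30.6 and 32.8 CPM with shEVI1-2531 and 37.2 and 42.0 CPM with shEVI1-2532. Its effects were -0.34 ± 0.17 with shEVI1-2531 (edgeR adjusted p = 0.204) and -0.02 ± 0.17 with shEVI1-2532 (0.946); whether the pair differed from each other was not tested.

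PARP14 measured 32.2 and 46.0 CPM in NTC, 20.2 and 22.4 CPM with shEVI1-2531, and 28.5 and 25.0 CPM with shEVI1-2532. It was the 1 member with a larger fitted fall with shEVI1-2531 (-0.86 ± 0.19, edgeR adjusted p = 0.00755) than with shEVI1-2532 (-0.53 ± 0.19, 0.0383) among those called with both, but the difference was not called (0.33 ± 0.18, 0.216). The shEVI1-2531 call was lost without NTC day 6 (-0.55, edgeR adjusted p = 0.110), and the shEVI1-2532 call without NTC day 6 (-0.25, 0.385) or shEVI1-2532 day 6 (-0.26, 0.500).

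The log2 ratios of PARP10 and PARP12 changed sign between the days, while NTC itself rose. PARP10 measured 17.1 CPM on day 3 and 47.1 CPM on day 6 in NTC, a rise to 2.75 times, but 32.3 CPM on both days with shEVI1-2531 and 22.6 and 33.7 CPM with shEVI1-2532. PARP12 measured 6.57 and 14.5 CPM in NTC, 10.4 and 8.44 CPM with shEVI1-2531, and 12.6 and 12.1 CPM with shEVI1-2532. Both genes were thus above NTC on day 3 and below it on day 6 with either shRNA. Neither was called with shEVI1-2531 (PARP10 0.17 ± 0.26, edgeR adjusted p = 0.717, and PARP12 -0.10 ± 0.28, 0.849) or with shEVI1-2532 (-0.10 ± 0.26, 0.796, and 0.28 ± 0.28, 0.452). GRINA rose with both shRNAs (1.16 ± 0.15 and 1.11 ± 0.15, edgeR adjusted p = 0.000273 and 8.41e-05).

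PARG measured 19.8 and 17.0 CPM in NTC, 14.7 and 16.1 CPM with shEVI1-2531, and 12.3 and 12.6 CPM with shEVI1-2532. It was lower with shEVI1-2532 (-0.56 ± 0.17, edgeR adjusted p = 0.0213) and not called with shEVI1-2531 (-0.26 ± 0.17, 0.343). The shEVI1-2532 call was lost without NTC day 3 (-0.47, edgeR adjusted p = 0.104), shEVI1-2532 day 3 (-0.52, 0.170) or shEVI1-2532 day 6 (-0.60, 0.104). TIMM23B, which overlaps PARG on the opposite strand with 36 to 254 counts a library, also fell with shEVI1-2532 (-1.54 ± 0.31, edgeR adjusted p = 0.00189), and the PARG pseudogene PARGP1 had 22 to 203 counts. Their part in the PARG value was not tested.

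PARP4 measured 120.0 and 102 CPM in NTC, 99.9 and 101 CPM with shEVI1-2531, and 139 and 127 CPM with shEVI1-2532. Neither effect was called (-0.13 ± 0.13, edgeR adjusted p = 0.525, and 0.27 ± 0.13, 0.123), while the difference between the shRNAs just was (0.40 ± 0.13, 0.0420). That call was lost without any single shEVI1 library (0.39, edgeR adjusted p = 0.159 without shEVI1-2532 day 3, 0.41, 0.133 without shEVI1-2532 day 6, 0.30, 0.339 without shEVI1-2531 day 3 and 0.47, 0.0799 without shEVI1-2531 day 6). TNKS lay between 18.5 and 26.6 CPM in all 6 libraries and was not called in any of the knockdown comparisons.

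**Figure D4:**
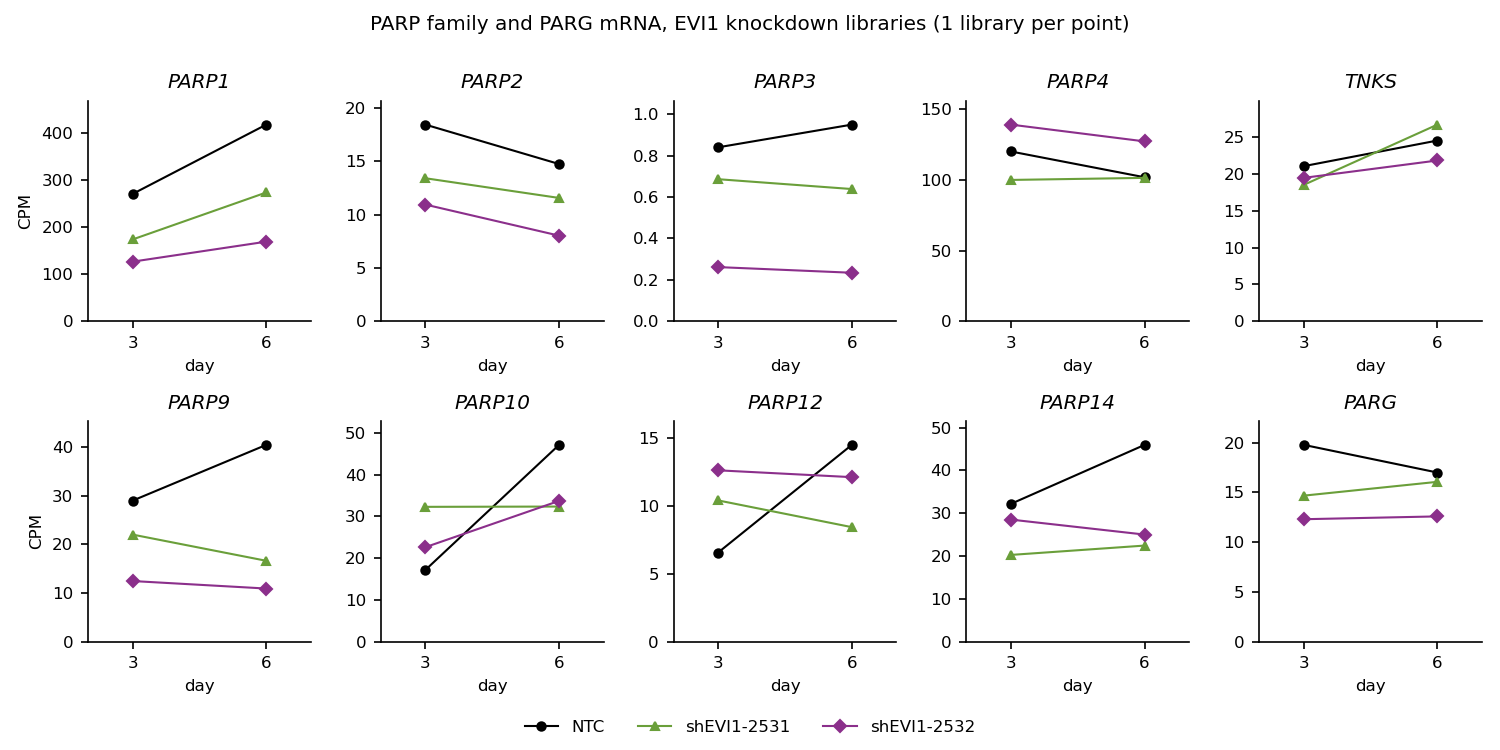
CPM (y axis, from 0, own scale per gene) on days 3 and 6 (x axis) for the 10 members, 1 point per library, for NTC (black circles), shEVI1-2531 (green triangles) and shEVI1-2532 (purple diamonds). PARP1 and PARP9 are lower than NTC with both shRNAs on both days, PARP3 is near 0.25 CPM with shEVI1-2532, and the NTC lines of PARP10 and PARP12 cross the shRNA lines.

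In all, 6 of the 10 members were lower with shEVI1-2532 and none was higher, against 19.9% lower and 21.2% higher of 18606 genes tested. With shEVI1-2531, 3 were lower and none was higher, against 7.90% and 9.49%. The median log2 fold change of the members was -0.54 with shEVI1-2532 and -0.33 with shEVI1-2531, beside 0.00 and 0.01 over all genes tested. The shRNAs differed for 4 of the 10, against 24.2% of genes. Both shRNAs were set against the same NTC libraries.

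The level of PARP1 and PARP2 can be set beside the list of 20 cell cycle genes. The median log2 ratio of that list to DMSO was -0.15, -0.63 and -1.42 with olaparib at 12, 24 and 48 h and -0.05, -1.05 and -3.08 with talazoparib. In the mean effect 3 of its 20 genes were called lower, beside 1.01% of all genes tested. By the slope test, 19 of 20 had a negative called slope, beside 1431 of the 17218 genes tested. Among them were TOP2A (-1.23 ± 0.13, edgeR adjusted p = 3.63e-24) and MKI67 (-1.16 ± 0.13, 1.55e-20). With shEVI1-2532, 19 of 20 were lower (median -1.35), beside 19.9% of all genes tested, and with shEVI1-2531 9 of 20 (median -0.38), beside 7.90%. Monocyte maturation genes moved the opposite way, with a positive called slope in 11 of 12, beside 1404 of the 17218 genes tested. In the mean effect 1 of 12 was called higher, beside 3.16% of all genes tested. With shEVI1-2532 10 of 12 were higher, beside 21.2% of all genes tested, and with shEVI1-2531 8 of 12, beside 9.49%. CD14, the endotoxin co-receptor of monocytes, had a slope of 2.12 ± 0.15 (edgeR adjusted p = 7.05e-42) and rose by 5.14 ± 0.25 with shEVI1-2532 (1.29e-07) and by 4.60 ± 0.25 with shEVI1-2531 (1.90e-06). The part of these changes in the values of PARP1 and PARP2 was not tested.

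The interferon-inducible members can be set beside 36 interferon-stimulated genes. Their median log2 ratio to DMSO was 0.11, 0.75 and 0.81 with olaparib and 0.26, 1.34 and 0.57 with talazoparib at 12, 24 and 48 h. In the mean effect 4 of 36 were called higher (TRIM22, IRF1, STAT2 and IRF7, by 0.67 to 0.80), beside 3.16% of all genes tested. The median of the mean effects was 0.69, beside -0.01 over all genes. A positive slope was called for 12 of 36, beside 1404 of the 17218 genes tested. With shEVI1-2532, 26 of the 35 tested were lower and 2 were higher (IRF1 and HERC5), with a median of -1.69, beside 19.9% lower and 21.2% higher of all genes tested. With shEVI1-2531, 17 of 35 were lower and 1 was higher, with a median of -1.10, beside 7.90% lower and 9.49% higher of all genes tested. IFITM1 fell by 3.46 ± 0.26 (edgeR adjusted p = 1.40e-06) and OAS3 fell by 2.85 ± 0.26 (5.10e-06) with shEVI1-2532.

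**Figure D5:**
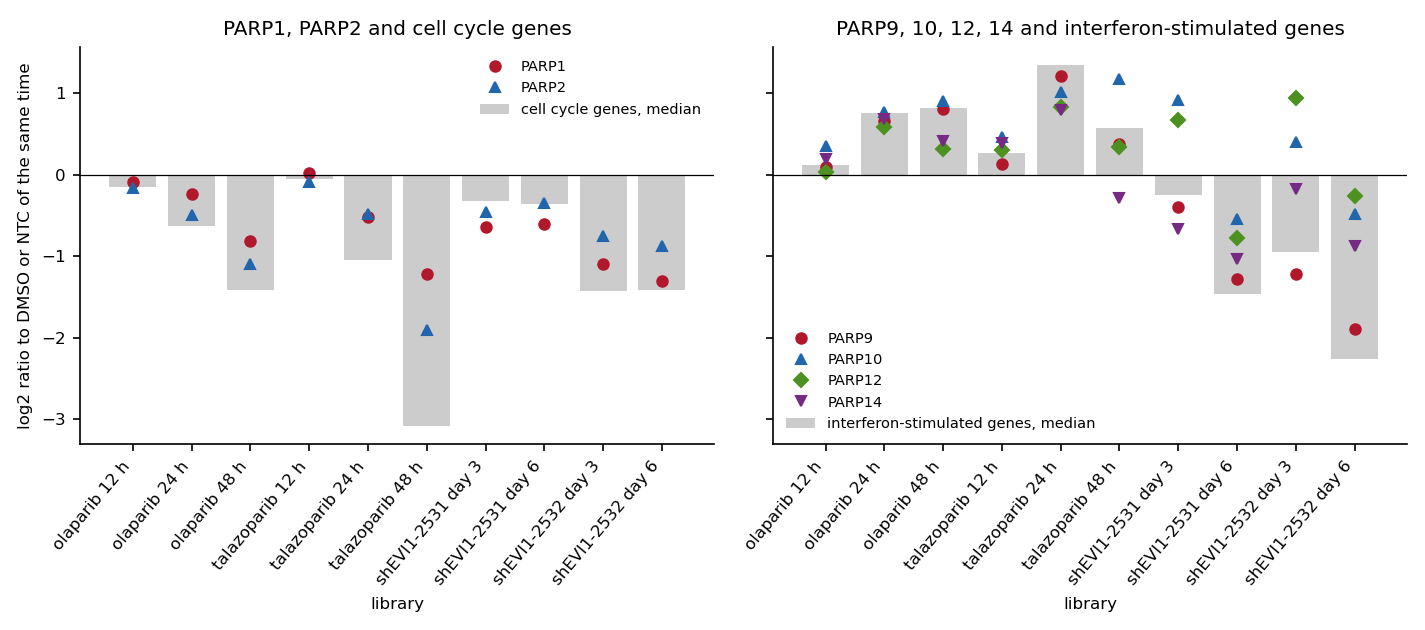
Log2 ratio to DMSO or NTC of the same time (y axis) in 10 treated libraries (x axis), with grey bars for the median of 20 cell cycle genes (left) or 36 interferon-stimulated genes (right) and points for single members. PARP1 and PARP2 are lowest where the cell cycle median is lowest (-3.08, talazoparib 48 h) except that PARP1 is lower still with shEVI1-2532 on day 6, and PARP10 and PARP12 lie above 0 on day 3 while the interferon-stimulated median lies below it.

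Of 10 genes for PARP1 partners in strand break repair, none was called in the mean effect. A negative slope was called for 4, beside 1431 of the 17218 genes tested: TIMELESS (-0.98 ± 0.13, edgeR adjusted p = 2.47e-14), FEN1 (-0.79 ± 0.13, 1.72e-09), HPF1, which completes the PARP1 active site for serine (-0.41 ± 0.14, 0.0396), and LIG3, the ligase of single-strand break repair (-0.40 ± 0.13, 0.0409). XRCC1, the scaffold that binds LIG3, was not called (mean effect 0.11, slope 0.06). With shEVI1-2532, TIMELESS, FEN1 and LIG3 were lower and 1 other partner was higher, beside 19.9% lower and 21.2% higher of all genes tested. With shEVI1-2531 only LIG3 was called, as lower (-0.64 ± 0.17, edgeR adjusted p = 0.0199), beside 7.90% lower of all genes tested.

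Of 8 other family members, TIPARP, a target gene of the aryl hydrocarbon receptor, rose with the inhibitors (mean effect 0.61 ± 0.11, edgeR adjusted p = 0.0380) and with olaparib (0.83 ± 0.13, 0.0396). It was the 1 of 8 called in each. Of all genes tested, 3.16% were higher in the mean effect and 0.639% were called with olaparib. With talazoparib it was not called (0.39 ± 0.13, edgeR adjusted p = 0.0772). It also rose with shEVI1-2532 (1.04 ± 0.17, edgeR adjusted p = 0.000531) and not by the test with shEVI1-2531 (0.14 ± 0.17, 0.631), and the difference between shRNAs was called (0.90 ± 0.17, 0.00295). PARP16, an endoplasmic reticulum member, had a negative slope (-0.61 ± 0.16, edgeR adjusted p = 0.00338), PARP11 was lower with shEVI1-2532 (-0.59 ± 0.20, 0.0305) and PARP15 with shEVI1-2531 (-1.15 ± 0.25, 0.00783). Each was 1 of 8 called in that direction. Over all genes tested, 1431 of 17218 had a negative called slope. With shEVI1-2532 19.9% were lower and 21.2% higher, and with shEVI1-2531 7.90% were lower. ZC3HAV1, the antiviral zinc-finger protein that lacks catalytic activity, and TNKS2 were not called in any comparison (mean effects 0.17 and -0.07).

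Of the 7 tested genes listed for ADP-ribose removal, 1 was called higher in the mean effect, beside 3.16% of all genes tested. This was ADPRHL1 (0.97 ± 0.21, edgeR adjusted p = 0.0478), at a low level in the 9 libraries tested (mean log2 CPM of 0.35). Over all 16 libraries ADPRHL1 ran from 0.382 to 14.7 CPM, and the highest value was that of the untreated library, which entered no test. MACROD1 had a negative slope (-0.54 ± 0.14, edgeR adjusted p = 0.00207) and was lower with shEVI1-2532 (-0.95 ± 0.22, 0.00455), while NUDT16 was higher with shEVI1-2531 (0.53 ± 0.16, 0.0363). Each was the 1 of 7 called in that comparison. Over all genes tested, 1431 of 17218 had a negative called slope, 19.9% were lower with shEVI1-2532 and 9.49% higher with shEVI1-2531. ADPRS, which removes the serine-linked unit, was not called in any comparison (mean effect -0.07). Among 9 tested genes of NAD supply and use, the NAD-consuming surface enzyme CD38 rose in the mean effect (2.15 ± 0.46, edgeR adjusted p = 0.0471), from 1.5 CPM or less in DMSO. CD38 was the 1 of 9 called there, beside 3.16% higher of all genes tested. BST1, a related enzyme, rose with both shRNAs (0.72 ± 0.14, edgeR adjusted p = 0.00520 and 2.66 ± 0.15, 2.72e-07), and QPRT, of NAD synthesis from tryptophan, fell with both (-0.62 ± 0.19, 0.0453 and -1.86 ± 0.20, 1.95e-05). Of the 9 NAD genes, 4 were higher and 1 lower with shEVI1-2531, beside 9.49% and 7.90% of all genes tested. With shEVI1-2532, 3 were higher and 1 lower, beside 21.2% and 19.9%. NAMPT, the rate-limiting enzyme of NAD salvage, was not called in any comparison (mean effect 0.20).

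The genes whose log2 CPM followed each member most closely over the 16 libraries, centred within each experiment, are given as a description. They were sought among the 8992 genes whose mean log2 CPM exceeded 3. Among the genes most like PARP1 were PAQR4 and ACLY (Pearson r of 0.985 and 0.981), and PARP2 was most like WDR76, IARS and FBXO5 (0.979, 0.977 and 0.977). For PARP9 they were the interferon-stimulated genes RSAD2, DDX58 and IFIT3 (0.984, 0.975 and 0.972), for PARP14 IFIH1, EIF2AK2 and DTX3L (0.902, 0.869 and 0.847), and for PARP12 HERC6, SHISA5 and MAD1L1 (0.847, 0.847 and 0.831). PARP10 was closest to RBCK1, PTGS1 and PITPNC1 (0.927, 0.911 and 0.891), PARG to TASOR, RSBN1L and LIN54 (0.966, 0.959 and 0.931), PARP4 to RAB3GAP2, ATXN3 and FCHO2 (0.916, 0.904 and 0.901) and TNKS to AC005670.3, ATG2B and RFX7 (0.839, 0.839 and 0.836). PARP3 was too low to enter. Among the members, PARP10 and PARP12 were the most alike pair (0.809), followed by PARP1 and PARP2 (0.756), PARP9 and PARP14 (0.731) and PARP2 and PARG (0.729). The 16 libraries share treatments and controls, so these values carry no test.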

How the data were processed

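Poly(A) RNA libraries were made with a stranded kit and sequenced by the authors, who per the labels aligned the reads with STAR, used Picard and counted reads per gene with featureCounts on hg38 (GRCh38). Versions and the strand setting of the counting are not given in the sources used here. The deposited files hold, for each of 60623 genes, raw counts and TPM. The deposited TPM divide by the whole gene span, introns included (recomputed from the counts to within 5.09e-11), and were not used further. The members and the gene lists were chosen with earlier results of these data known.

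Counts were scaled by TMM factors, separately in the 10 inhibitor and 6 knockdown libraries, and are given as CPM. Genes reaching 10 counts in 3 or more of the 9 inhibitor libraries, or in 2 or more of the 6 knockdown libraries, were tested with the quasi-likelihood F-test of edgeR 4.0.16 (R 4.3.3, limma 3.58.1), with hour or day as a factor, and p-values were adjusted over all genes tested by the Benjamini-Hochberg method (call below 0.05). The untreated library entered no test. For slopes, log2 hours were crossed with each inhibitor. Ratios of 2 libraries have 95% Poisson intervals, which cover counting error only. At these depths, 3 counts correspond to 0.0249 to 0.0536 CPM. Exon lengths came from GENCODE 29, which may differ from the annotation used for counting. The scripts were tested on simulated data. Alternatives were DESeq2 1.42.0, other scalings, no filter, no time term, pooled shRNAs and leaving out libraries. For the inhibitors one by one, values of the test are given for PARP10 and TIPARP alone. Of each other list, up to 3 called genes with the smallest p and a mean log2 CPM above 1 were eligible to be named, beside HPF1, ADPRS, XRCC1, NAMPT, TIPARP, ZC3HAV1, TNKS2, DTX3L, MKI67, CD14 and MECOM. IRF7, HERC5 and ADPRHL1 were named after their values were seen. Some genes that this rule covers are not reported here. Figures were drawn with matplotlib 3.10.9.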

Additional observations from a re-analysis of the deposited data

Results flagged for a closer look

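For 2 of the 10 members, beside 16.5% of all genes tested, the effect of the inhibitors differed between time points by the joint test of both slopes: the mean slope per doubling of hours was -0.49 for PARP1 and -0.68 for PARP2. For 4 of the 10 members, beside 24.2% of all genes tested, the effects of shEVI1-2532 and shEVI1-2531 differed by the test of that difference: -0.57 for PARP1, -1.41 for PARP3, 0.40 for PARP4 and -0.72 for PARP9 (shEVI1-2532 minus shEVI1-2531, log2 scale). No explanation for these differences was tested.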

How the results depend on the processing

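The number of members called in the mean effect (1) was 3 with DESeq2, 4 with no filter on low counts, 0 with no time term and 0 to 5 when a library or hour was left out. For olaparib (0) it was 1 with DESeq2, 1 with no filter and 0 to 1 when a library or hour was left out. For talazoparib (1) it was 4 with DESeq2, 4 with no filter, 0 with no time term and 0 to 5 when a library or hour was left out. Without the 24 h libraries the mean effect had no gene called (0), with 2176 at an unadjusted p under 0.05. The slope count (2) ranged from 0 (without DMSO 48 h) to 3. With shEVI1-2532 (6) it was 3 with no day term and 0 with both shRNAs as 1 group. With shEVI1-2531 (3) both of these settings gave 0, and leaving out 1 library gave 1 to 4. The shRNA difference (4) gave 0 with no day term and 0 to 4 when 1 library was left out. PARP10 kept its direction in the mean effect under every alternative (0.63 to 0.96), as did PARP1 and PARP2 in the slope and with both shRNAs, and PARP3 and PARP9 with both shRNAs. The causes were not tested.

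Library totals alone moved the median of all genes by -0.30 with shEVI1-2532, -0.17 with shEVI1-2531, -0.13 in their difference, -0.11 in the slope and -0.10 with talazoparib. On that scale the sign reversed for the PARP12 slope (-0.028), PARP4 (-0.036) and PARP12 (-0.022) with shEVI1-2532, PARP10 with shEVI1-2531 (-0.0084), and the single ratios of PARP4 with shEVI1-2532 on day 3 (-0.043) and day 6 (-0.028) and of TNKS with shEVI1-2531 on day 6 (-0.048). With no time term TNKS reversed in the mean effect (0.0047), and with both shRNAs as 1 group PARP10 (0.041, against shEVI1-2532) and PARP4 (0.079) and PARP12 (0.11, both against shEVI1-2531) did.

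Leaving out 1 library or hour reversed the sign of some uncalled values, with the range over those fits in parentheses: in the mean effect TNKS (-0.10 to 0.17), PARP4 (-0.090 to 0.021); in the slope PARP9 (-0.35 to 0.84), PARP12 (-0.38 to 0.54), PARP14 (-0.68 to 0.45), PARG (-0.39 to 0.029); with shEVI1-2532 PARP12 (-0.37 to 1.01), PARP10 (-0.68 to 0.56); with shEVI1-2531 PARP10 (-0.43 to 0.80), TNKS (-0.18 to 0.14), PARP12 (-0.76 to 0.63); and in the shRNA difference PARP10 (-0.75 to 0.29), PARP12 (-0.025 to 0.85), TNKS (-0.28 to 0.024).

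The labels carry no replicate numbers, and libraries of the same hour or day were matched by the time term, whose removal is given above. Leaving out an hour for the slope, or a day for the shRNAs, left no residual degrees of freedom and was not run. When 1 library is left out, a lone library at its time is assumed to vary like the others. The RLE scaling gave the same number of member calls as TMM in all 7 comparisons. The tests had 2 or 4 residual degrees of freedom. Depth was lowest for PARP3, with 18 to 123 counts a library.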
